A study of Mus musculus with 14 samples.

Results

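The 10 genes described here encode ATP-binding cassette (ABC) transporters that move drugs, glutathione conjugates, glucuronides, sulfates, cyclic nucleotides and porphyrins across membranes: Abcc1, Abcc2, Abcc3, Abcc4, Abcc5, Abcc10, Abcg2, Abcb1a, Abcb1b and Abcb6. They were chosen by name, with earlier results of these data known. All 10 were found among 34452 mouse genes, beside 43 other ABC genes. The tissue was the RPE (retinal pigment epithelium, the cell layer that supports the photoreceptors) of rd1 mice (FVB/N) at postnatal day 20, profiled by RNA sequencing. The rd1 allele abolishes Pde6b function and rods are lost early. In each of 7 mice, 1 eye received an adeno-associated virus (AAV) with green fluorescent protein (GFP) under the human Best1 promoter, which is active in RPE, packaged in the 7M8 capsid; this is the control eye. The other eye is here called the Nrf2 eye. It received the same GFP vector together with an AAV8 vector carrying human Nrf2 (gene NFE2L2) under the same promoter. It thus differs from the control eye in the transgene, an extra vector with another capsid and a higher total vector dose. RPE RNA of each eye made 1 library, named by group and mouse number. The methods of the study count fewer pairs for this comparison than the labels list, and all pairs in the labels were used here.

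Transporters of the ABC family use ATP to push substrates out of the cytosol. Those of the Abcc (MRP) branch export organic anions, among them glutathione and its conjugates, and several are textbook targets of Nrf2, the transcription factor that is held back by Keap1 and binds antioxidant response elements with small Maf proteins. In tissue barriers such as the RPE and the blood vessel wall, efflux transporters limit the entry of drugs and clear conjugated metabolites.

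The promoters of the members are shown first, because the core letters of the antioxidant response element, TGACNNNGC, can be read in them directly. RefSeq starts on build GRCm38.p6 were available for 8 of the 10 members, with 12 starts in all, and each window ran from 250 bases before to 50 bases after the start. The members without a start were Abcc1 and Abcc3, which are among the 3 members called higher below, so their promoters were not examined. On both strands, TGACNNNGC was found in 6 of these 12 windows (4 of 8 members: Abcc4, Abcc10, Abcc2 and Abcb1a), and in 12.4% of all 32851 such windows in the genome. Of these 4 members only Abcc4 was called higher below. The Abcb1a start, at 8567091 on chromosome 5, lies upstream of the annotated gene, which runs from 8660077 to 8748575. TGACNNNGC does not overlap GCGTG, the core of the xenobiotic response element, in these windows. Both starts of Abcc4, which holds the motif at each, the upstream start of Abcc10 and, as a member of the same branch without the motif, the only start of Abcc5 follow, 5′ to 3′ on the strand of the gene, with TGACNNNGC or its reverse complement in capitals.
Abcc4, chr14:118706170-118706469, minus strand: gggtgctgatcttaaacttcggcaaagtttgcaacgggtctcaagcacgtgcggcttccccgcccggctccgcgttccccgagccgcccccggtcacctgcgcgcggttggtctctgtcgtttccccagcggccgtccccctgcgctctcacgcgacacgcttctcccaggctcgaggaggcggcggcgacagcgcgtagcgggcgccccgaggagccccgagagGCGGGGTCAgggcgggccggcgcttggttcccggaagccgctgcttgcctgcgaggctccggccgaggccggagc
Abcc4, chr14:118676882-118677181, minus strand: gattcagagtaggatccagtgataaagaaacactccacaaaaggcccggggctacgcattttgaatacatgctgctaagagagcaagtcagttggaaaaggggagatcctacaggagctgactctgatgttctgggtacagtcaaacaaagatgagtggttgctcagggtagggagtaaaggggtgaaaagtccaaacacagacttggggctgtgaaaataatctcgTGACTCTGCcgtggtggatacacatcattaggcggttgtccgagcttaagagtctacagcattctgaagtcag
Abcc10, chr17:46327974-46328273, minus strand: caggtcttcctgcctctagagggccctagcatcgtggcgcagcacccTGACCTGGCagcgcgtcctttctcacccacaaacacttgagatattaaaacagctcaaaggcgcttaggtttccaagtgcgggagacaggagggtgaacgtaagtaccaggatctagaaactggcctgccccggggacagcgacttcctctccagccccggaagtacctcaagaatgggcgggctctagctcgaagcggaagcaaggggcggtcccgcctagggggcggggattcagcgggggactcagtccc
Abcc5, chr16:20426345-20426644, minus strand: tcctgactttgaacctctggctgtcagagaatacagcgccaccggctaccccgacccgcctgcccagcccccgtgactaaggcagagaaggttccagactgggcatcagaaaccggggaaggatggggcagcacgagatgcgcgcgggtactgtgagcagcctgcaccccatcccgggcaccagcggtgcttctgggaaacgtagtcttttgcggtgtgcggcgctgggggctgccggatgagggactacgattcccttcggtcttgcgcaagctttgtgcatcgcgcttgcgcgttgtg
The first Abcc4 window holds its match at position -25 relative to the start, on the strand opposite the gene, and 2 copies of GCGTG, both read as CACGC on the printed strand (32.4% of all windows hold at least 1). The second Abcc4 start lies inside the gene and has its match at position -23. Abcc10 has its match at position -203, and Abcc5 has none. A match is a run of letters, not a bound site, and no match says only that these letters are not in the window.

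The libraries held 16548349 to 50543008 estimated counts, and levels are given in CPM, counts relative to the library total. Fitted fold changes and differences within mice used TMM scaling factors in addition (0.868 to 1.071 in Nrf2 eyes and 0.959 to 1.148 in control eyes), so they are not plain ratios of the CPM printed here, and counts of mice refer to the scaled differences. Scaling to the total count alone moved the median over all tested genes from -0.04 to -0.17 on the log2 scale. The vector transcript, human NFE2L2, reached 1163 to 8711 CPM (median 5868) in Nrf2 eyes and 1.12 to 1163 CPM (median 51.8) in control eyes, and was higher in the Nrf2 eye of 7 of 7 mice. The highest control library, control 3, and the lowest Nrf2 library, Nrf2 4, met at 1163 CPM. They were also the closest of all 91 library pairs over the tested genes (root mean square log2 difference 0.508, against 0.674 for the next pair and a median of 1.08), so the fitted fold change of each member is given with and without mice 3 and 4. Whether these libraries were exchanged or mixed cannot be told from the labels. Nrf2 2 stood apart in another way, with 2.55% of its counts in pseudogenes against 1.06 to 1.17% elsewhere. RPE marker genes summed to 14137 to 26062 CPM in Nrf2 eyes and 8138 to 28899 CPM in control eyes. Of the 10, Rpe65, the visual cycle isomerase, was called lower at a log2 fold change of -2.17 (edgeR adjusted p = 0.0199, lower in 7 of 7 mice). Ttr, another of the 10, went the other way without being called, at 1.58 (edgeR adjusted p = 0.104, higher in 6 of 7 mice). At an unadjusted edgeR p under 0.05, with DESeq2 and with voom, 1 of the 10 was higher and 1 lower. The part of these differences in the members' values was not tested. Rod markers summed to 6.93 to 99.8 and 19.8 to 436 CPM, and cone markers to 17.5 to 103 and 41.3 to 1054 CPM, with 0 and 2 of 8 genes called lower by edgeR (3 and 7 at an unadjusted p under 0.05, 3 and 6 with DESeq2, 4 and 8 with voom). Surface epithelium markers summed to 2046 to 21373 CPM (median 7498) in Nrf2 eyes and 1884 to 50480 CPM (median 21805) in control eyes. None of these 6 was called by edgeR, while 1 was lower at an unadjusted p under 0.05, 3 with DESeq2 and 1 with voom. The surface epithelium sum exceeded that of the RPE markers in control 2, 3, 5 and 6 and in Nrf2 4 and 5. The part of photoreceptor or surface epithelium RNA in the members' values was not tested. The labels describe 2 sequencing runs without tying libraries to them, so no comparison within a run was made.

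Abcc1, Abcc3 and Abcc4 rose in Nrf2 eyes, no member fell, and the other 7 did not pass the test. These 3 of 10 members compare with 3.43% of 16289 tested genes called, 2.94% higher and 0.491% lower (edgeR's quasi-likelihood test with the mouse as a block, adjusted p under 0.05, Benjamini-Hochberg over all tested genes). The members were chosen with earlier results of these data known, and the study had already reported Abcc4 as upregulated at this age. The comparison with all tested genes is thus a description only. At an unadjusted edgeR p under 0.05, and with DESeq2 or limma voom at an adjusted p under 0.05, the count was again 3 higher and 0 lower. Over all tested genes these criteria gave more calls, with 10.7% higher and 7.49% lower at the unadjusted edgeR p, 7.6% and 4.33% with DESeq2, and 9.73% and 6.18% with voom. All 10 members passed the filter on low counts. The same 3 members were higher in the Nrf2 eye of 7 of 7 mice, against 5.65% of tested genes, and no member was lower in 7 of 7 mice, against 2.92%. In CPM, Abcc1 and Abcc4 had every Nrf2 library above every control library, against 1.04% of tested genes, and no member had the reverse, against 0.755%. With TMM scaling this held for Abcc4, at 179.8 CPM in Nrf2 4 against 179.5 CPM in control 3, but not for Abcc1, at 122.0 against 122.3 CPM in the same libraries (1.22% of tested genes). Over the members the median log2 fold change was 0.38, and it was -0.04 over all tested genes. In bulk libraries such as these, fewer cells of a type and less RNA per cell cannot be told apart.

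**Figure D1:**
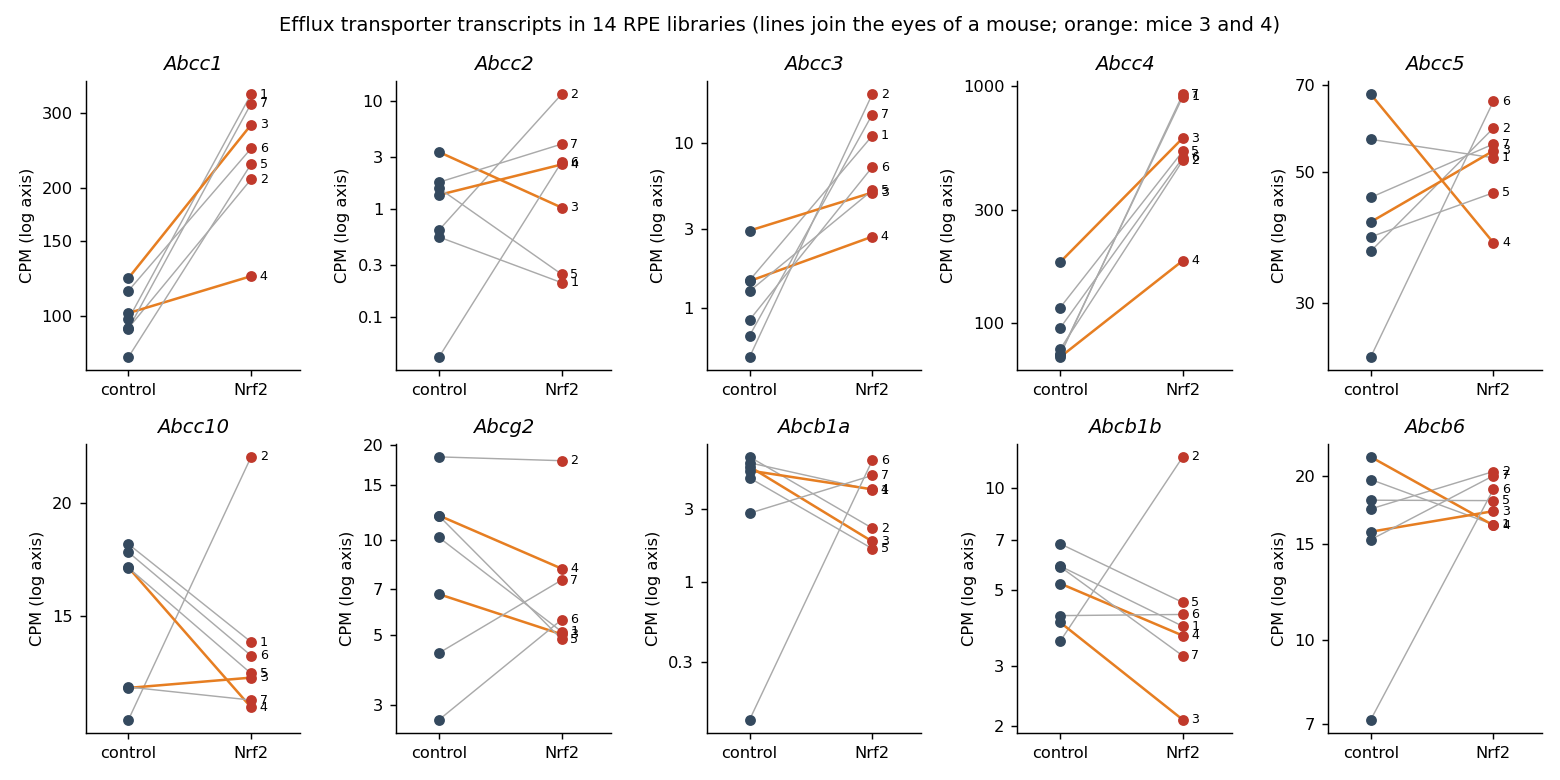
CPM of the 10 members (log axis) in the control eye and the Nrf2 eye of each of 7 mice, with a line joining the eyes of a mouse, mice 3 and 4 in orange and mouse numbers beside the Nrf2 points (no TMM scaling). All lines rise for Abcc1, Abcc3 and Abcc4, while each of the other members has both rising and falling lines. Nrf2 4 sits at 183 CPM for Abcc4 beside control 3 at 180 CPM.

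Abcc4 encodes MRP4, which exports cyclic AMP and cyclic GMP, urate, prostaglandins and, together with glutathione, conjugated anions. The gene (ENSMUSG00000032849) spans chromosome 14, 118482692 to 118706219, on the minus strand of GRCm38. It measured 903, 485, 603, 183, 531, 498 and 924 CPM in Nrf2 eyes 1 to 7. In the control eyes of the same mice it measured 73.6, 77.2, 180, 71.5, 116, 94.8 and 72.9 CPM. The groups did not overlap, but Nrf2 4 and control 3 all but touched, with the other Nrf2 libraries at 485 CPM or above and the other control libraries at 116 CPM or below. The log2 fold change was 2.64 (SE 0.32, 95% interval 1.91 to 3.37, edgeR adjusted p = 0.00936), a 6.22-fold higher level. Within mice the log2 difference ran from 1.53 to 3.97, with an exact two-sided sign-flip p of 0.0156, which is the smallest that 7 mice can give. Without mice 3 and 4 the log2 fold change was 3.00 (edgeR adjusted p = 0.00585).

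Abcc1 encodes MRP1, which exports glutathione conjugates such as leukotriene C4, and oxidised glutathione. The gene (ENSMUSG00000023088, chromosome 16, 14361558 to 14475737, plus strand) measured 332, 210, 281, 124, 227, 248 and 315 CPM in Nrf2 eyes 1 to 7 and 98.3, 93.7, 123, 102, 80.1, 115 and 93.3 CPM in control eyes. All control libraries lay between 80.1 and 123 CPM, and Nrf2 4 was level with the highest of them. The fitted log2 fold change was 1.39 (SE 0.20, 95% interval 0.94 to 1.83, edgeR adjusted p = 0.0116), a 2.61-fold higher level. The log2 difference within mice ran from 0.46 in mouse 4 to 2.11 in mouse 1 (exact sign-flip p = 0.0156). It was 1.56 in the fit without mice 3 and 4 (edgeR adjusted p = 0.00968).

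Abcc3 encodes MRP3, the exporter of glucuronides and bile salts on the basolateral side of liver and gut cells. Its gene (ENSMUSG00000020865) lies on chromosome 11, 94343295 to 94392997, minus strand. Levels were low: 11.04, 19.8, 5.00, 2.70, 5.15, 7.13 and 14.9 CPM in Nrf2 eyes 1 to 7, and 1.47, 0.501, 2.93, 1.45, 1.26, 0.842 and 0.675 CPM in control eyes. Here the groups overlapped, since Nrf2 4 lay below control 3. Its log2 fold change was 2.88 (SE 0.60, 95% interval 1.51 to 4.24, edgeR adjusted p = 0.0401), a 7.34-fold higher level. Differences within mice spread from 0.96 in mouse 3 to 5.07 in mouse 2 (exact sign-flip p = 0.0156). Without mouse 1, 2, 3, 5, 6 or 7 the log2 fold change was 2.50 to 3.22 but the call was lost (edgeR adjusted p = 0.0578 to 0.137). It passed without mouse 4 (edgeR adjusted p = 0.0158) and, at a log2 fold change of 3.64, without mice 3 and 4 (edgeR adjusted p = 0.0168). Scaling to the total count alone gave 2.74 (edgeR adjusted p = 0.0562).

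**Figure D2:**
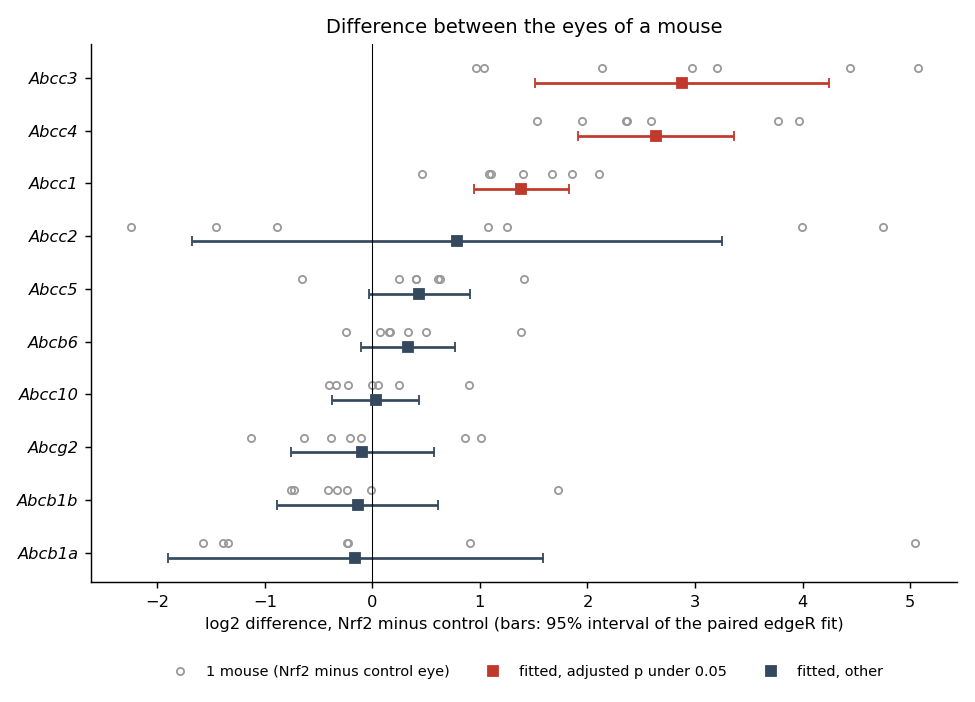
Log2 difference between the Nrf2 eye and the control eye for each member, with 1 open circle per mouse (7 per gene) and a square with a bar for the fitted log2 fold change and its 95% interval, red where the adjusted p was under 0.05. The intervals of Abcc1, Abcc3 and Abcc4 lie above 0, those of the other members cross it, and that of Abcc2 is the widest, from -1.67 to 3.25.

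Whether Abcc4 moved more than other members was tested on the differences within mice, for 10 pairs of members. Exact two-sided sign-flip p-values were adjusted over these 10. Abcc4 was the fixed comparator, and the study had already reported it as upregulated at this age. Its excess over members that hardly changed thus follows largely from its own rise. Abcc4 exceeded Abcc1 by 1.26 on the log2 scale (SD 0.53, 7 of 7 mice, exact p = 0.0156, adjusted p = 0.0260). It also exceeded Abcc5 by 2.21, Abcc10 by 2.61, Abcg2 by 2.73, Abcb1b by 2.75 and Abcb6 by 2.31 in 7 of 7 mice, each with an adjusted exact p of 0.0260. Against Abcb1a the difference was 2.48 in 6 of 7 mice (exact p = 0.0469, adjusted 0.0670), and against Abcc2 it was 1.72 in 5 of 7 (adjusted exact p = 0.195); neither passed. Abcc4 and Abcc3 differed by -0.18, with Abcc4 the more changed in 4 of 7 mice (adjusted exact p = 0.766). Without mice 3 and 4, where 5 mice cannot give a p under 0.05, Abcc4 exceeded Abcc1 by 1.45 and differed from Abcc3 by -0.56.

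The vector transcript varied widely between Nrf2 eyes, so member levels were set against it across these 7 libraries, on log2 CPM, as 20 relations in all (10 members in each group). Abcc4 had r = 0.97 (exact permutation p = 0.00179, adjusted 0.0179) and rho = 0.89 (exact p = 0.0123, adjusted 0.123). Abcc1 had r = 0.95 (exact permutation p = 0.00179, adjusted 0.0179) and rho = 0.96 (exact p = 0.00278, adjusted 0.0556). Leaving out Nrf2 1 and Nrf2 4, the libraries farthest from the median vector level, gave r = 0.88 for Abcc4 and 0.84 for Abcc1 over the other 5. Abcc3 had r = 0.75 (exact permutation p = 0.0371, adjusted 0.148) and rho = 0.57, and r = 0.25 over the same 5 libraries, so its relation rested on those 2. Members that were not called had relations as high as that of Abcc3: Abcc5 had r = 0.87 (exact permutation p = 0.0345, adjusted 0.148), falling to 0.40 over the 5 libraries, and Abcb6 had r = 0.84 (exact permutation p = 0.0530, adjusted 0.177), with rho = 0.43 and r = 0.91 over the 5. In the 7 control eyes no relation passed the adjusted threshold, with r = 0.61 for Abcc4 (adjusted exact p = 0.397), 0.49 for Abcc3 (adjusted exact p = 0.496) and 0.04 for Abcc1 (adjusted exact p = 0.976). Without control 1 and control 6, the libraries farthest from the median, these became 0.85, 0.84 and 0.52. No test compared the relations between members or between groups. The values of a library share its total, and the points are few and unevenly spread.

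**Figure D3:**
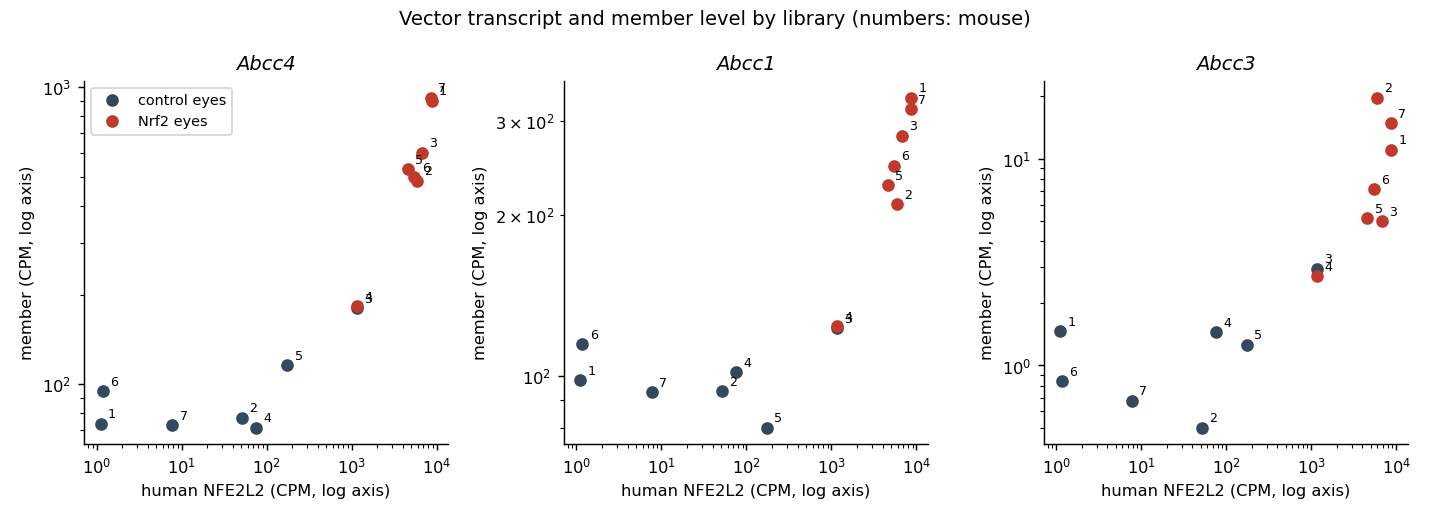
CPM of the vector transcript human NFE2L2 (x, log axis) against CPM of Abcc4, Abcc1 and Abcc3 (y, log axis), with 7 Nrf2 eyes and 7 control eyes as separate colours and mouse numbers beside the points. Nrf2 4 and control 3 lie nearly on each other at 1163 CPM of vector transcript, and the highest Abcc4 levels belong to Nrf2 7 and Nrf2 1.

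Levels of different genes were compared per length, as CPM per kilobase of transcript. In control eyes Abcc4 (17.1 ± 6.94, SD, n = 7) and Abcc1 (14.8 ± 2.10) led, and their spreads overlapped. Abcc5 (7.63 ± 2.43) and Abcb6 (5.55 ± 1.58) formed the next pair, followed by Abcc10 at 2.88 ± 0.54, Abcg2 at 1.66 ± 0.94, Abcb1b at 1.18 ± 0.28 and Abcb1a at 0.888 ± 0.449. Neighbours in this order from Abcc10 to Abcb1a did not differ beyond their spread (mean ± SD). Abcc3 at 0.260 ± 0.162 and Abcc2 at 0.164 ± 0.135 came last. In Nrf2 eyes the order began with Abcc4 at 103 ± 45.1 CPM per kilobase, Abcc1 at 36.5 ± 10.4, Abcc5 at 9.14 ± 1.55 and Abcb6 at 6.13 ± 0.57, without overlap of mean ± SD between neighbours, and Abcc3 stood sixth at 1.87 ± 1.23. Abcc4 made up 61.0% ± 7.85 (46.7 to 69.3%) of the summed CPM per kilobase of the 10 members in Nrf2 eyes and 32.2% ± 8.29 (22.96 to 45.9%) in control eyes.

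**Figure D4:**
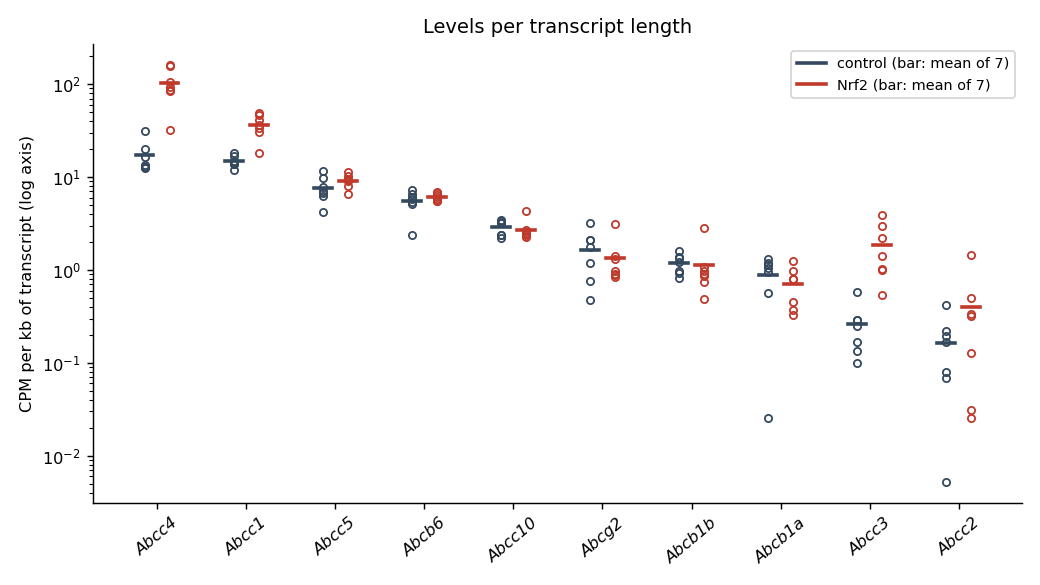
Level of each member per length (CPM per kilobase of transcript, log axis) in 7 Nrf2 eyes and 7 control eyes, with open points for libraries and bars for group means. Abcc4 and Abcc1 lie highest in both groups, Abcc2 and Abcc3 lie lowest in control eyes, and the means of the members in the middle of the order lie close together.

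The other members of the Abcc branch were not called. Abcc5 encodes MRP5, an exporter of cyclic nucleotides and other anions (chromosome 16, 20331303 to 20426394, minus strand). It ran from 37.9 to 65.7 CPM (median 54.2) in Nrf2 eyes and from 24.3 to 67.6 CPM (median 41.1) in control eyes. The groups overlapped widely, and the Nrf2 eye was higher in 6 of 7 mice. Its log2 fold change was 0.44 (SE 0.21, 95% interval -0.04 to 0.91, edgeR adjusted p = 0.310). Without mouse 4, where the control eye was the higher, it was 0.62 and passed (edgeR adjusted p = 0.0454). In that fit 2052 of 16318 tested genes were called, against 559 of 16289 with all mice. Without mice 3 and 4 the Abcc5 value was 0.61 (edgeR adjusted p = 0.116).

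Abcc10, or MRP7, exports lipophilic anions and several anticancer drugs. Its gene lies on chromosome 17, 46303221 to 46328352, on the minus strand, and overlaps Dlk2 on the opposite strand (1.45 to 13.8 CPM in Nrf2 eyes and 3.70 to 21.3 CPM in control eyes). Abcc10 ran from 11.9 to 22.5 CPM (median 12.96) in Nrf2 eyes and from 11.5 to 18.01 CPM (median 16.95) in control eyes. The groups overlapped, and the highest value was that of Nrf2 2. Its log2 fold change was 0.03 (SE 0.18, 95% interval -0.38 to 0.44, edgeR adjusted p = 0.951), with 3 of 7 mice higher on the scaled differences. It was 0.06 without mice 3 and 4 and -0.12 without mouse 2, and with scaling to the total count alone -0.10, none of them called.

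Abcc2, or MRP2, is the apical exporter of conjugates that liver cells use to send bilirubin glucuronides into bile (chromosome 19, 43782192 to 43840740, plus strand). Its level was low and uneven, with 1 to 201 estimated counts per library. Levels ran from 0.206 to 11.5 CPM (median 2.57) in Nrf2 eyes and from 0.0421 to 3.36 CPM (median 1.34) in control eyes. Its log2 fold change was 0.79 (SE 1.08, 95% interval -1.67 to 3.25, edgeR adjusted p = 0.738), with 4 of 7 mice higher, and 1.39 without mice 3 and 4. Differences within mice ran from -2.25 to 4.75, and the interval holds changes of several fold in either direction.

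Abcg2 and P-glycoprotein are efflux pumps well known from the endothelium of the blood-brain and blood-retina barriers. In the mouse, P-glycoprotein has 2 genes, Abcb1a and Abcb1b, which need not share the same cells. Abcg2, the breast cancer resistance protein, exports sulfates, urate and many drugs (chromosome 6, 58584523 to 58695676, plus strand). It ran from 4.85 to 17.9 CPM (median 5.60) in Nrf2 eyes and from 2.69 to 18.4 CPM (median 10.2) in control eyes. The highest value of each group came from mouse 2, and the lowest control value was that of control 6. The fitted difference was -0.09 (SE 0.29, 95% interval -0.75 to 0.57, edgeR adjusted p = 0.902), with 2 of 7 mice higher. It was 0.00 without mice 3 and 4, and between -0.29 and 0.08 when any single mouse was left out.

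Abcb1a and Abcb1b are the mouse genes for P-glycoprotein, which pumps hydrophobic drugs out of cells. They are neighbours on the plus strand of chromosome 5, Abcb1a at 8660077 to 8748575 and Abcb1b at 8798147 to 8866315. Of the 31-base words in their transcripts, 23.2% of those of Abcb1a and 25.2% of those of Abcb1b occur in another gene, chiefly in each other, so the split of reads between them is a model estimate. Abcb1a ran from 1.64 to 6.17 CPM (median 3.96) in Nrf2 eyes and from 0.126 to 6.51 CPM (median 5.30) in control eyes. Control 6, with 3 estimated counts, was far below the other control libraries, which lay at 2.80 CPM or above. The log2 fold change was -0.16 (SE 0.77, 95% interval -1.90 to 1.59, edgeR adjusted p = 0.939), 0.19 without mice 3 and 4, and -0.68 without mouse 6. The mean difference within mice was 0.17, of opposite sign to the fit, because mouse 6 alone differed by 5.04 while 5 of 7 mice were lower (exact sign-flip p = 0.938).

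Abcb1b ran from 2.08 to 12.3 CPM (median 3.92) in Nrf2 eyes and from 3.54 to 6.85 CPM (median 5.23) in control eyes. Nrf2 2 held the highest value, and the groups overlapped. A log2 fold change of -0.14 was fitted (SE 0.33, 95% interval -0.88 to 0.61, edgeR adjusted p = 0.864), with 1 of 7 mice higher on the scaled differences. It was 0.03 without mice 3 and 4, and 0.03 without the mouse as a block. The responses of Abcb1a and Abcb1b differed by 0.28 on the log2 scale (3 of 7 mice, adjusted exact sign-flip p = 0.766).

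The 10 endothelial marker genes summed to 75.3 to 240 CPM (median 111) in Nrf2 eyes and 89.9 to 359 CPM (median 187) in control eyes, and none of the 10 was called by edgeR, with a median log2 fold change of -0.21 (1 was lower at an unadjusted p under 0.05, and 1 with DESeq2 or voom). Control 6, the lowest control library for Abcg2 and Abcb1a, was also the lowest control library for the endothelial sum at 89.9 CPM, and held 50480 CPM of surface epithelium markers, the most of all libraries. Mouse 2, highest for Abcg2, had the highest endothelial sum in both groups. Abcb1b and Abcb1a were highest in mouse 2 in 1 group each. Nrf2 2 was the highest Nrf2 library for Abcb1b at 12.3 CPM, but control 2 was the lowest control library at 3.54 CPM. For Abcb1a, control 2 was the highest control library at 6.51 CPM. Nrf2 2 held 2.24 CPM of Abcb1a against 4.93 CPM in Nrf2 7, which had the lowest endothelial sum. The pericyte markers summed to 36.9 to 102 CPM in Nrf2 eyes and 89.0 to 158 CPM in control eyes, with 2 of 6 called lower. The part of these cells in the values of Abcg2, Abcb1a and Abcb1b was not tested.

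Abcb6 encodes a transporter of porphyrins found in mitochondria and in endosomal compartments such as melanosomes (chromosome 1, 75171717 to 75180392, minus strand). It ran from 16.3 to 20.4 CPM (median 18.1) in Nrf2 eyes and from 7.11 to 21.7 CPM (median 17.4) in control eyes. The Nrf2 eyes lay close together, and the low control value was again control 6. Abcb6 had a log2 fold change of 0.33 (SE 0.19, 95% interval -0.10 to 0.77, edgeR adjusted p = 0.395), with 6 of 7 mice higher, and 0.45 without mice 3 and 4 (edgeR adjusted p = 0.333). Of the 31-base words in its transcripts, 91.7% also occur in Gm29253, an overlapping transcript on the same strand, which was not among the genes analysed here.

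The remaining ABC genes, many of them transporters of lipids, peptides, metals and other substrates, were counted as a list. Of 43 genes 33 were tested, 1 was called higher and 0 lower by edgeR, with a median log2 fold change of 0.04. At an unadjusted edgeR p under 0.05 there were 4 higher and 1 lower, with DESeq2 2 and 0, and with limma voom 3 and 1, of 33 genes in each case, beside the shares of all genes given above (10.7% and 7.49%, 7.6% and 4.33%, 9.73% and 6.18%). The gene called was Abca8b, a lipid transporter of the Abca branch. Its 7 Nrf2 eyes ran from 5.39 to 27.9 CPM (median 13.6) and its control eyes from 0.253 to 8.32 CPM (median 1.47), overlapping in range, with a log2 fold change of 3.12 (SE 0.66, edgeR adjusted p = 0.0406) and 7 of 7 mice higher. This call was lost in 6 of the 7 fits that left out 1 mouse (1, 2, 3, 5, 6 or 7), held without mouse 4 and without mice 3 and 4, and was lost with upper-quartile scaling and with scaling to the total count.

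Other carriers of drugs and organic anions, such as the Slco and Slc22 families, gave 0 edgeR calls among 21 tested of 29 genes, with a median log2 fold change of -0.41. At an unadjusted edgeR p under 0.05 there were 1 higher and 5 lower, with DESeq2 1 and 2, and with limma voom 0 and 2. Enzymes that make glucuronides and sulfates, the cargo of several members, gave 2 genes called higher and 1 lower by edgeR among 14 tested of 33 (4 and 2 with DESeq2, 3 and 3 with voom). Ugdh, which makes the UDP-glucuronic acid used for glucuronidation, rose by 0.81 on the log2 scale (SE 0.13), with 96.9 ± 11.8 CPM in control eyes and 156 ± 26.7 CPM in Nrf2 eyes (SD, n = 7 mice; edgeR adjusted p = 0.0171). Ugp2, which makes its precursor UDP-glucose, rose by 0.57 from 65.0 ± 3.09 to 88.6 ± 9.27 CPM (edgeR adjusted p = 0.0185), without overlap between the groups. Sult1c1, a cytosolic sulfotransferase, fell by 1.91 on the log2 scale, from 50.7 ± 15.01 to 15.9 ± 15.2 CPM, and was lower in 7 of 7 mice (edgeR adjusted p = 0.0477). Among 14 tested of 15 regulators and scaffolds of these transporters, 1 was called higher and 0 lower by edgeR (4 and 1 at an unadjusted p under 0.05, 3 and 0 with DESeq2, 2 and 0 with voom). This was Keap1, the inhibitor of Nrf2, at 115 ± 23.6 CPM in Nrf2 eyes and 78.4 ± 10.8 CPM in control eyes (log2 fold change 0.67, edgeR adjusted p = 0.0348). These 4 calls were near the threshold: each was lost without mouse 1, 3, 5 or 7 (edgeR adjusted p = 0.0589 to 0.159), Ugdh, Sult1c1 and Keap1 also without mouse 6 (0.0502 to 0.109) and Sult1c1 and Keap1 without mouse 2 (0.0826 and 0.051), at unchanged sign.

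**Figure D5:**
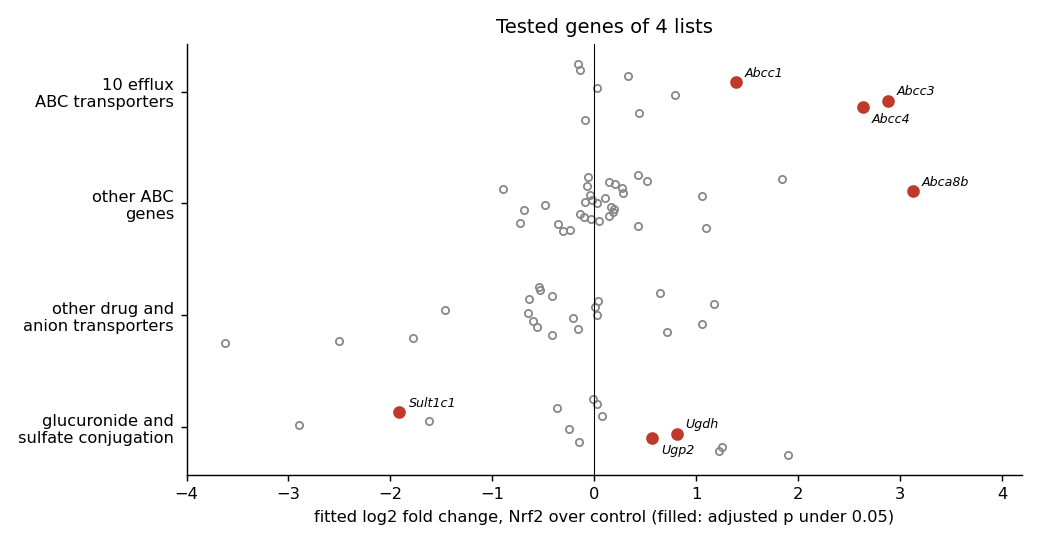
Fitted log2 fold change, Nrf2 over control, of the tested genes of 4 lists (10 members, 33 other ABC genes, 21 other drug and anion transporters, 14 genes of glucuronide and sulfate conjugation), with filled points for an adjusted p under 0.05. Abcc1, Abcc3 and Abcc4 are filled among the members, against Abca8b alone among the other ABC genes, and the carriers of the third list have none.

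The genes most like each called member were found by the root mean square difference of mean-centred log2 CPM over the 14 libraries, among 11778 protein-coding candidates. For Abcc4 they were Gss at 0.137, Gclm at 0.257 and Prdx6 at 0.268, against a median of 1.52 over all candidates. Gss and Gclm encode enzymes of glutathione synthesis and Prdx6 a peroxiredoxin that uses glutathione. For Abcc1 they were Tuba4a, a tubulin, at 0.143, Prkaa2, a catalytic subunit of AMP-activated kinase, at 0.169, and Slc22a23, a transporter of the organic ion family, at 0.169 (median 0.869). For Abcc3 they were Maoa, monoamine oxidase A, at 0.452, Lix1 at 0.530 and Rida, a deaminase of reactive imines, at 0.559 (median 1.69), all farther off than the genes most like Abcc4 and Abcc1. These likenesses include the difference between the groups and are a description only.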

How the data were processed

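The deposited values are estimated counts of reads per gene, given as whole numbers without normalization, which the authors made from amplified RPE RNA. The submitters' processing notes name Salmon 0.9.1, and the methods of the study describe Ensembl release 91 annotation with Salmon transcripts summed per gene by tximport; that these values are the Salmon estimates was inferred from the gene types present (21751 protein-coding genes and 12145 pseudogenes of 34453). Salmon assigns reads that match several genes by a model. Groups and mice came from the sample labels, and the eyes of a mouse were paired because they come from the same animal. Same-mouse deviations from the group means correlated by -0.31 to 0.30.

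The main test was edgeR 4.0.16 (R 4.3.3) with TMM, mouse and treatment as terms, quasi-likelihood F-tests, filterByExpr with a minimum count of 10, and Benjamini-Hochberg adjustment over 16289 mouse genes at 0.05. Human NFE2L2, the vector transcript, was fitted and left out of the calls. Single differences used sign-flip tests over all sign patterns on log2 CPM with a prior count of 2. DESeq2 1.42.0, limma 3.58.1 (voom with sample quality weights), other scalings, filters and subsets of mice were alternatives. The fit was also run on simulated counts. These had no differences between mice and no outlying library, so that run does not vouch for the fit on these data. The p-values measure the spread between these 7 mice. Positions came from GENCODE M21 (GRCm38) and promoters from RefSeq (GRCm38.p6). The 10 members and all gene lists were chosen with earlier results of these data known. Named genes were the members, every gene of the other pathway lists past the threshold (at most 8 a list), and the 3 genes most like each called member.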

Additional observations from a re-analysis of the deposited data

Results flagged for a closer look

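In 6 of the 20 groups of 7 libraries examined (10 members in each treatment), 1 library lay far from the other 6 by Dixon's criterion. The criterion flags about 1 in 20 independent groups of normally distributed values. The groups here share the same libraries, so that rate does not apply to them directly. Nrf2 2 was the high library for 4 members: Abcc2 at 11.5 CPM, Abcc10 at 22.5 CPM, Abcg2 at 17.9 CPM and Abcb1b at 12.3 CPM. The same library held 2.55% of its counts in pseudogenes and 19164 genes with at least 10 counts, against 15570 to 17370 in the others, and its part in these values was not tested. Control 3 was the high control library for the others, with Abcc4 at 180 CPM and Abcc3 at 2.93 CPM, and it held 1163 CPM of the vector transcript. Member by member, Nrf2 4 measured 0.71 (Abcb1a) to 1.21 (Abcg2) times control 3, with 1.01 for both Abcc4 and Abcc1. The criterion was applied to CPM on a linear scale, where a low library such as control 6 for Abcb1a, at 0.126 CPM, does not stand out.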

How the results depend on the processing

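Abcc1 and Abcc4 were called higher under every alternative run at a threshold of 0.05, with log2 fold changes of 1.26 to 1.54 and 2.42 to 2.83 when 1 mouse was left out. Without mouse 1, 2, 3, 5, 6 or 7 these calls were near the threshold (edgeR adjusted p = 0.0357 to 0.0494 for Abcc1 and 0.0226 to 0.0383 for Abcc4). At 0.01 only Abcc4 was called (1 member). No member was called lower. Of all tested genes 559 were called, 1100 without the mouse as a block, 1943 with DESeq2, 2592 with voom, 347 without a filter, 56 at 0.01 and 111 (without mouse 7) to 2052 (without mouse 4) with 1 mouse left out. Of the called genes 85.7% were higher in the fit reported, 61.0% with scaling to the total count, 63.7% with DESeq2, 61.1% with voom, 66.1% without mice 3 and 4 and 50.9% without mouse 4. Other ABC genes called higher numbered 0 with upper-quartile scaling, with the total count alone and at 0.01, 2 with DESeq2, 3 with voom (and 1 lower) and 0 to 2 with 1 mouse left out. All mice moved one way in exact sign-flip tests for 3 members, beside 5.65% of tested genes higher and 2.92% lower in 7 of 7 mice. Without mouse 4 this held for 5 members, with Abcc5 and Abcb6 also higher. Without mouse 2 it held for 4, with Abcb1b lower. The share of all tested genes was not computed for fewer mice, where the criterion is looser. Without the pairing by mouse Abcb1b turned to 0.026, and no member's call changed. Signs also turned for Abcc10 with the total count alone (-0.10) or without mouse 2 or 3 (-0.12 and -0.01; range -0.12 to 0.092 with 1 mouse left out), Abcc2 with voom (-0.084), Abcg2 without mouse 1 or 5 (0.00 and 0.085; range -0.29 to 0.085), Abcb1a without mouse 2, 3 or 5 (0.12, 0.10, 0.09; range -0.68 to 0.12) or mice 3 and 4 (0.19), and Abcb1b without mice 3 and 4 (0.032); none of these was called, and the cause was not tested. Abcc2 had 1 to 201 and Abcb1a down to 3 estimated counts in a library.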
